A study of Mus musculus with 24 samples.

Results

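The 5 miRNAs described here, mmu-miR-205-5p, mmu-miR-203-3p, mmu-miR-486a-5p, mmu-miR-150-5p and mmu-miR-206-3p (the mouse prefix is dropped below), are ones usually read as marks of epithelium, blood or muscle, and were followed in mouse 3T9 fibroblasts. They were chosen by name, and each was taken as the sum of its 8 isoform classes (canonical, trimmed and extended forms, templated or not). All 5 of the 5 were found among the 1221 mature miRNA names of the deposited table, and all 5 were among the 414 abundant enough to be tested. The cells are an immortalised line of mouse embryo fibroblasts grown in serum. The labelled libraries came from cells that had taken up 300 µM 4-thiouridine (4SU, a uridine analogue that can be biotinylated and captured) for 3 h, followed by 1 mM uridine for 0, 2, 4, 6, 8, 10 or 12 h of chase. There were 3 experiments, each with 1 library per time, so 21 labelled libraries in all. The negative extraction was the same capture carried out on cells never given 4SU. Total RNA was sequenced without capture from 4SU-pulsed cells and from untreated cells, here called unlabelled. Each of these controls is 1 library, so no test between a control and the other libraries has a replicate check.

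A miRNA is cut from a hairpin precursor, and usually 1 arm is loaded into an Argonaute protein, where its seed, bases 2 to 8, pairs with target mRNAs. miR-205 and miR-203 are known from stratified epithelia such as skin, where miR-205 acts against the transcription factors ZEB1 and ZEB2 and miR-203 acts against the progenitor factor p63. miR-486 is made from an intron of the ankyrin gene Ank1 and is abundant in erythroid cells and striated muscle, miR-150 is a lymphocyte miRNA that targets the transcription factor Myb, and miR-206 is a skeletal muscle miRNA of the miR-1 family.

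The mature sequences below are the canonical forms, while the counts also take in trimmed and extended forms. The members printed here do not share a seed, which is in capitals. The seeds of the other members were not compared. RefSeq (GRCm38.p6) held the sequence of 3 of the 5 members. The opposite arm of the miR-205 hairpin is added because it ranked first by the ratio of negative extraction to total unlabelled RNA.
miR-205-5p: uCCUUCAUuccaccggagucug
miR-203-3p: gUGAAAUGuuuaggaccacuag
miR-206-3p: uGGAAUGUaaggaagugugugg
miR-205-3p: gAUUUCAGuggagugaagcuca
Each is 22 nt long. They hold 6 or 7 uridines, the bases that 4SU can replace. The 4 mature sequences lie at chr1:193507503-193507524 on the minus strand, chr12:112130927-112130948 on the plus strand, chr1:20679055-20679076 on the plus strand and chr1:193507467-193507488 on the minus strand. By the GENCODE annotation of GRCm38, the Mir205 hairpin (chr1:193507463-193507530) overlaps an exon of the long noncoding RNA 4631405K08Rik, and the Mir206 hairpin (chr1:20679010-20679082) overlaps an exon of the long noncoding RNA Gm28653. Mir203 (chr12:112130880-112130955) and Mir150 (chr7:45121757-45121821) overlap no other annotated gene. Mir486 (chr8:23142555-23142682) lies in an intron of Ank1, with the hairpin Mir3107 on the opposite strand.

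Depth, taken over all miRNAs, ran from 1133048 to 7886484 counts per labelled library, and was 283922 in the negative extraction, 4525638 in total 4SU RNA and 6412428 in total unlabelled RNA. Levels are given as CPM, counts scaled to a common library total, so they are shares of each pool and not amounts. A level of 3 counts equals 0.38 to 2.65 CPM in the labelled libraries and 10.6 CPM in the negative extraction, and the shallow negative extraction sets the weakest limit below. In bulk RNA, few cells with much of a miRNA and many cells with little of it cannot be told apart. The 7 fibroblast miRNAs of the marker lists summed to 140078 to 267110.4 CPM in labelled libraries, 146589.6 CPM in the negative extraction, 384765 CPM in total 4SU RNA and 439317 CPM in total unlabelled RNA. Each library has a code in the file's header, which no label explains. Experiment 1 and the negative extraction have the same code, experiments 2 and 3 have another each and both total RNA libraries have a further one, so the experiment and the code cannot be told apart. No captured library has the code of the total RNA libraries. Wherever a captured library is compared with total RNA, capture and code cannot be told apart either.

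miR-205-5p was the best covered of the epithelial pair and stood above both total RNA libraries in every labelled library, as did 8.7% of tested miRNAs. Its lowest, median and highest levels over the 7 labelled libraries of an experiment were 499, 731 and 1150 CPM in experiment 1. In experiment 2 they were 390, 571 and 773 CPM, and in experiment 3 they were 198, 270 and 359 CPM. Experiment 3 lay below experiments 1 and 2 throughout, with no overlap. The counts behind these levels were 442 to 8890 per library. The negative extraction had 648 CPM (184 counts, 95% interval 558 to 749), total 4SU RNA 30.9 CPM (140 counts, 26.0 to 36.5) and total unlabelled RNA 182 CPM (1166 counts, 172 to 193). Intervals of single libraries are Poisson intervals and cover counting error only.

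**Figure D1:**
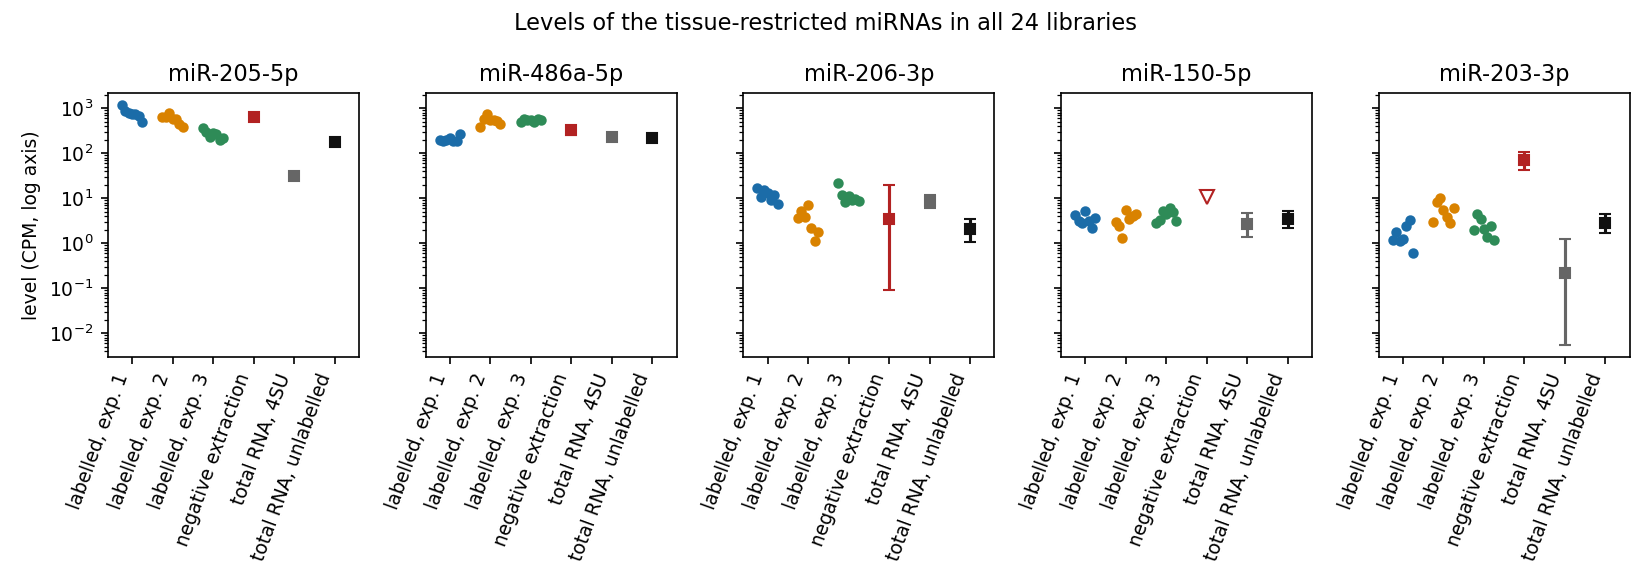
Levels of the 5 miRNAs in CPM on a log axis, with 1 point per library for the labelled libraries of each experiment, the negative extraction, total 4SU RNA and total unlabelled RNA. The error bars of the controls are 95% counting intervals. The open triangle stands at 10.6 CPM, the level of 3 counts, in place of the 0 counts of miR-150-5p in the negative extraction. All labelled values of miR-205-5p, 198 to 1150 CPM, lie above both total RNA libraries, while those of miR-203-3p, 0.61 to 10.2 CPM, lie below the 70.4 CPM of the negative extraction.

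The negative extraction, made from cells given no 4SU, carried miR-205-5p at a level inside the labelled range. Of the 21 labelled libraries 8 were above it and 13 below. The ratio of labelled library to negative extraction ran from 0.306 to 1.77, and its 95% counting interval lay above 1 in 4 libraries and below 1 in 10. By experiment the ratios were 0.771 to 1.77 in experiment 1, 0.602 to 1.19 in experiment 2 and 0.306 to 0.553 in experiment 3, where all 7 intervals lay below 1. For comparison, the median over the 414 tested miRNAs of the labelled median divided by the negative extraction was 1.12. The highest values of miR-205-5p thus stood in the experiment that has the code of the negative extraction. Whether reads passed between these libraries was not tested.

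Set against total RNA, the negative extraction held miR-205-5p at 3.56 times its share in total unlabelled RNA (95% counting interval 3.03 to 4.17). Of 447 miRNAs with at least 10 counts over both libraries, 13.9% were at least 2-fold higher in the negative extraction with an interval clear of 1, and miR-205-5p ranked 36 from the top by log2 ratio with a pseudocount of 1 CPM, the measure behind every rank of a ratio here. The median ratio of all was 0.718. Against total 4SU RNA the ratio was 20.9 (16.7 to 26.3), a side on which 10.3% of miRNAs were called higher. The 2 total RNA libraries also differed from each other. In total 4SU RNA the share of miR-205-5p was 0.170 of that in total unlabelled RNA (0.142 to 0.203), which placed it at rank 506 of 507, where 6.31% were called lower and the median ratio of all was 1.27. Lower shares in the negative extraction were called for 15.9% of miRNAs against total unlabelled RNA and for 21.7% against total 4SU RNA, and for 0 of the 5 miRNAs. For miR-150-5p a lower call was out of reach, since 0 counts still allowed ratios of up to 4.12 and 5.74. The 1 count of miR-206-3p left upper limits of 11.6 and 2.42, so its depth was too small for such a call as well. Each ratio compares 2 single libraries, and the negative extraction differs from total RNA in its header code too.

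The mix of miR-205-5p isoforms differed between these libraries too. The canonical sequence made up 48.9% of its counts in the negative extraction (Wilson 95% interval 41.8 to 56.1), 22.1% in total 4SU RNA (16.1 to 29.7) and 22.0% in total unlabelled RNA (19.8 to 24.5). The labelled libraries of experiment 1 had 19.2 to 27.8%, those of experiment 2 had 33.1 to 48.5% and those of experiment 3 had 23.1 to 34.1%. Experiment 2 was above experiment 1 throughout, and its 4 h library, at 48.5%, came closest to the negative extraction. The gap of 26.9 percentage points between the negative extraction and total unlabelled RNA was the highest of the 110 miRNAs with at least 50 counts in each, for which the median gap was 0.053 points. Over all miRNAs together the canonical share was 45.6 to 54.3% in labelled libraries, 58.2% in the negative extraction, 52.3% in total 4SU RNA and 54.4% in total unlabelled RNA.

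Bases added to the 3′ end without a template, often adenines or uridines put on by nucleotidyl transferases, accounted for much of the other reads. They made up 38.0% of miR-205-5p counts over all labelled libraries pooled, 25.5% in the negative extraction (19.8 to 32.3), 52.1% in total 4SU RNA (43.9 to 60.2) and 48.5% in total unlabelled RNA (45.6 to 51.3). Single labelled libraries had 37.2 to 43.7% in experiment 1, 28.3 to 35.7% in experiment 2 and 30.3 to 44.0% in experiment 3. Adenine additions were 25.9% in labelled libraries pooled, 20.1% in the negative extraction (15.0 to 26.5), 39.3% in total 4SU RNA (31.6 to 47.6) and 37.3% in total unlabelled RNA (34.6 to 40.1). In single labelled libraries they were 18.7 to 30.5%, a range that holds the value of the negative extraction. Both captured kinds of library therefore had fewer miR-205-5p reads with added bases than either total RNA library. The isoform values have no replicate for the controls and were not tested.

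**Figure D2:**
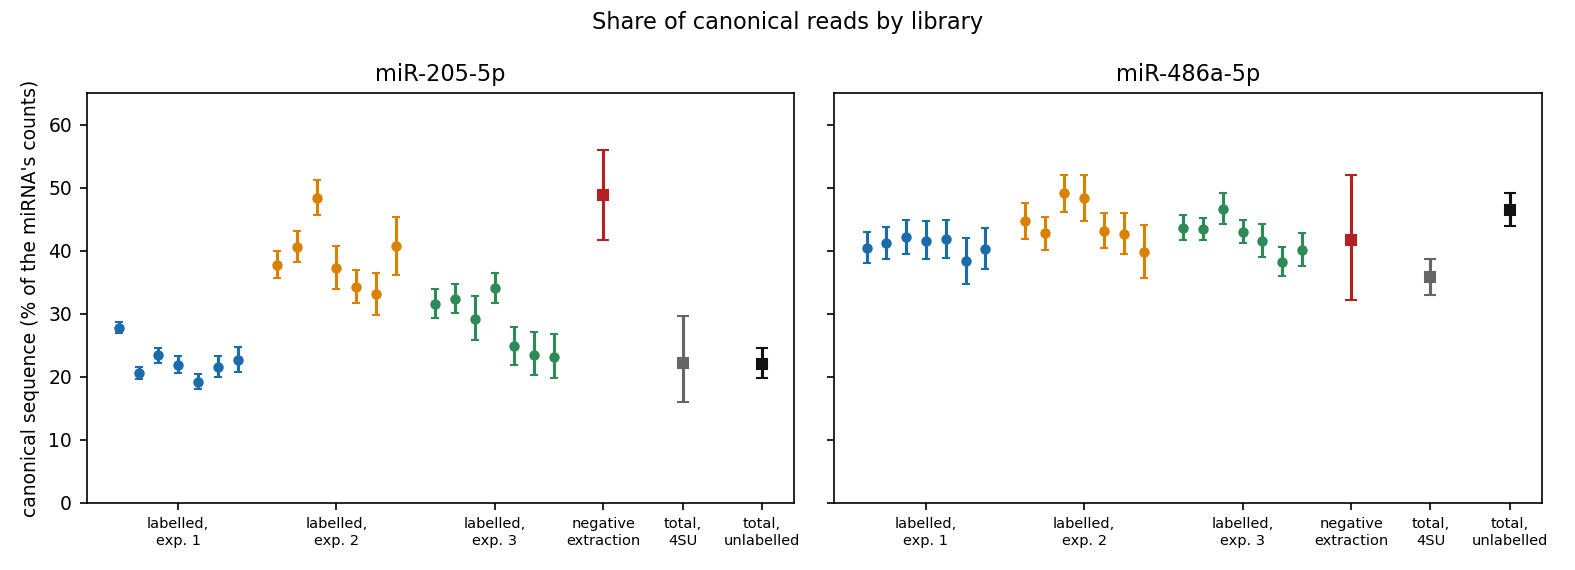
Share of canonical reads in percent of the counts of miR-205-5p and of miR-486a-5p, with 1 point per library and Wilson 95% intervals; labelled libraries of each experiment run from 0 h at the left to 12 h at the right. For miR-205-5p the negative extraction, at 48.9%, stands above both total RNA libraries, at 22.1 and 22.0%, whereas for miR-486a-5p the values are 41.8, 35.8 and 46.5%.

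The opposite arm, miR-205-3p, is the passenger strand of the same hairpin. It had 20 counts in the negative extraction (70.4 CPM), 0 in total 4SU RNA and 3 in total unlabelled RNA (0.468 CPM). Its ratio of negative extraction to total unlabelled RNA, 151 (44.7 to 791), ranked first of 447. In the labelled libraries the 0 h library of experiment 1 had 167 counts (21.6 CPM), and the other 20 had 0 to 18. The 3p arm was 0.596% of both arms with all labelled counts pooled, 9.80% in the negative extraction (6.44 to 14.7) and 0.257% in total unlabelled RNA. With counts pooled by experiment, the 3p arm was 0.751, 0.201 and 0.343% in experiments 1, 2 and 3. Its median over single labelled libraries was 0.315%. In no labelled library was it above 1.84%, so the arm ratio of the negative extraction was outside the labelled range.

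Over the chase, the share of miR-205-5p among labelled miRNAs was lower at 12 h than at 0 h in each experiment. The levels at 0 h were 1150, 621 and 359 CPM in experiments 1, 2 and 3, and those at 12 h were 499, 390 and 215 CPM. The ratio of 12 h to 0 h was 0.434 in experiment 1 (95% counting interval 0.412 to 0.458), 0.628 in experiment 2 (0.565 to 0.697) and 0.600 in experiment 3 (0.544 to 0.662). In edgeR's quasi-likelihood test over all 21 labelled libraries the slope was -0.05 log2 per hour (SE 0.032, adjusted p = 0.348) and did not pass, on a background of 12.3% of miRNAs called. With the experiment as a block the slope was -0.05 (SE 0.0096, adjusted p = 0.000319) and miR-205-5p fell, on a background of 31.9% called, or 16.7% called as falling. Within single experiments the slopes were -0.06, -0.05 and -0.02, with adjusted p of 0.0128, 0.0955 and 0.246 in edgeR. Depth was also lower at 12 h than at 0 h, with 7733333 counts at 0 h and 3281631 at 12 h in experiment 1. With all libraries thinned to the depth of the shallowest the slope was -0.06 (adjusted p = 0.275 in edgeR, without the block). A slope is relative to the other labelled miRNAs and is not a half-life.

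**Figure D3:**
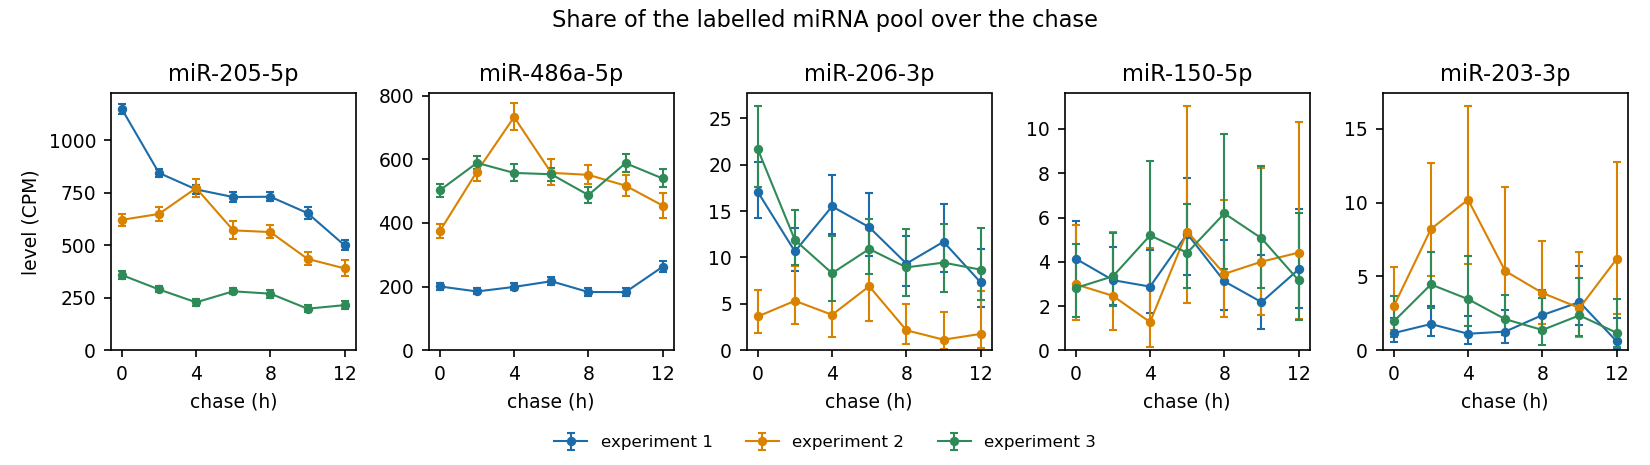
Level of each of the 5 miRNAs in CPM against hours of chase, with a line for each of the 3 experiments, 1 library per point and error bars for the 95% counting interval. miR-205-5p runs at 1150 to 499 CPM, 621 to 390 CPM and 359 to 215 CPM between 0 and 12 h in experiments 1 to 3, and the lines of experiment 3 and experiment 1 keep apart at every time.

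miR-203-3p, the other epithelial member, was scarce in the fibroblasts and highest in the negative extraction. The labelled libraries had 0.61, 1.26 and 3.26 CPM as lowest, median and highest in experiment 1. The values were 2.86, 5.37 and 10.2 CPM in experiment 2 and 1.18, 2.11 and 4.46 CPM in experiment 3, from 2 to 24 counts per library. The negative extraction had 70.4 CPM (20 counts, 43.0 to 109), total 4SU RNA 0.221 CPM (1 count) and total unlabelled RNA 2.81 CPM (18 counts, 1.66 to 4.44). All 21 labelled libraries were below the negative extraction, as was the case for 18.4% of tested miRNAs. The ratio of labelled library to negative extraction was 0.00865 to 0.145, with all 21 counting intervals below 1.

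Of 447 miRNAs, miR-203-3p ranked second by its ratio of negative extraction to total unlabelled RNA, 25.1 (12.6 to 50.3), behind the arm miR-205-3p. Both values rest on 20 counts in the negative extraction. The labelled libraries of experiment 1, which have the code of the negative extraction, had 2 to 14 counts each and a median of 1.26 CPM. Total 4SU RNA had 0.0787 of the miR-203-3p share of total unlabelled RNA (0.00187 to 0.499), on 1 count against 18. The canonical share was 54.9% over all labelled libraries (48.0 to 61.6), 45.0% in the negative extraction (25.8 to 65.8) and 55.6% in total unlabelled RNA (33.7 to 75.4), a difference too small for these counts to show. The opposite arm, miR-203-5p, had 0 counts in all 24 libraries.

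The slope of miR-203-3p over the chase was -0.02 log2 per hour (SE 0.060, adjusted p = 0.866 in edgeR), or -0.01 with the experiment as a block (adjusted p = 0.938). At 0 h it stood at 1.16, 2.98 and 1.95 CPM in experiments 1, 2 and 3, and at 12 h at 0.61, 6.18 and 1.18 CPM. The ratios of 12 h to 0 h were 0.524 (95% counting interval 0.055 to 2.53), 2.07 (0.656 to 6.25) and 0.607 (0.106 to 2.43). Each interval includes 1, so these counts show no direction in any experiment.

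The 6 other epithelial miRNAs of the marker list, miR-200a-3p, miR-200b-3p, miR-200c-3p, miR-141-3p, miR-429-3p and miR-375-3p, were scarce, at 4.58 CPM or less each in every labelled library. They summed to 0 to 6.29 CPM in the labelled libraries, 21.1 CPM in the negative extraction, 2.21 CPM in total 4SU RNA and 1.87 CPM in total unlabelled RNA. The whole sum of the negative extraction was miR-141-3p, with 6 counts. That miRNA, a member of the miR-200 family that keeps cells epithelial by acting against ZEB1, had 21.1 CPM there, 1.10 CPM in total 4SU RNA and 1.56 CPM in total unlabelled RNA (10 counts). Its ratio of negative extraction to total unlabelled RNA was 13.6 (4.05 to 41.2), and it ranked 6 of 447. The highest labelled value of miR-141-3p was 1.72 CPM, and 11 of the 21 labelled libraries had 0 counts. Of 8 epithelial miRNAs, then, miR-205-5p alone was above 100 CPM in any library, and miR-200a-3p, miR-200b-3p, miR-200c-3p, miR-429-3p and miR-375-3p had 0 counts in the negative extraction. The part of epithelial RNA in the levels was not tested.

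miR-486a-5p, the erythroid and muscle member, stood lower in experiment 1 than in experiments 2 and 3, which overlapped. In experiment 1 the lowest, median and highest labelled levels were 183, 199 and 262 CPM, from 672 to 1551 counts. In experiment 2 they were 374, 551 and 733 CPM, and in experiment 3 they were 488, 553 and 589 CPM. The negative extraction had 321 CPM (91 counts, 258 to 394), total 4SU RNA 232 CPM (1052 counts, 219 to 247) and total unlabelled RNA 217 CPM (1389 counts, 205 to 228). Experiment 1 lay below the negative extraction in all 7 libraries, at 0.570 to 0.819 of it, and experiments 2 and 3 lay above it in all 14, at 1.17 to 2.29 times. The interval was below 1 in 6 libraries of experiment 1 and above 1 in 13 of the other 14. Against total RNA, 15 labelled libraries were above both total RNA libraries and 5 below both. All 21 lay below both for 18.8% of tested miRNAs and for 0 of the 5.

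Between the controls miR-486a-5p was not called in either direction. Negative extraction over total unlabelled RNA was 1.48 (1.18 to 1.83), rank 113 of 447, where the median ratio of all was 0.718. Total 4SU over total unlabelled RNA was 1.07 (0.990 to 1.16), where that median was 1.27. Neither ratio of miR-486a-5p reached 2-fold. The canonical share was 42.7% over all labelled libraries, 41.8% in the negative extraction (32.2 to 52.0), 35.8% in total 4SU RNA and 46.5% in total unlabelled RNA. In the order of canonical shares, negative extraction minus total unlabelled RNA, miR-486a-5p ranked 88 of 110, against rank 1 for miR-205-5p.

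Over the chase the slope of miR-486a-5p was 0.02 log2 per hour (SE 0.038, adjusted p = 0.775 in edgeR) and 0.03 with the experiment as a block (adjusted p = 0.0738). The levels at 0 h were 201, 374 and 502 CPM in experiments 1, 2 and 3, and those at 12 h were 262, 455 and 540 CPM. The ratios of 12 h to 0 h were 1.31, 1.21 and 1.07, on 1 side of 1 in each experiment. The slope with the block was past the threshold only when experiment 2 was left out (0.04, adjusted p = 0.0179 in edgeR).

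Markers that come with red cells were nearly absent. miR-451a, the erythroid miRNA that Argonaute 2 itself cuts, had 0 to 0.863 CPM in labelled libraries, 3.52 CPM in the negative extraction (1 count), 1.33 CPM in total 4SU RNA (6 counts) and 0.624 CPM in total unlabelled RNA (4 counts). miR-144-3p, from the same transcript, had 0 counts in all 21 labelled libraries and in the negative extraction. Together miR-451a, miR-144-3p and miR-144-5p summed to at most 0.863 CPM in labelled libraries, where miR-486a-5p had at least 183 CPM. The name miR-486b-5p is not listed in the table.

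A second name from the same locus, miR-486b-3p, tracked miR-486a-5p closely. Its counts were 1.14 to 1.36 times those of miR-486a-5p in labelled libraries, and it had 356 CPM in the negative extraction, 292 CPM in total 4SU RNA and 272 CPM in total unlabelled RNA. Of its 36054 counts over the labelled libraries 0 were in the canonical class, 20453 were classed as extended at the 5′ end with templated bases and 15597 as extended there with non-templated bases. Across the 21 labelled libraries Pearson's r of log2 CPM with miR-486a-5p was 0.996, or 0.967 with the experiment means taken out. The hairpins Mir486 and Mir3107 lie on opposite strands of the same bases, and how reads that match both were counted is not given in the sources used here, so the division between these names is uncertain. The 3p arm miR-486a-3p stood at 1.26 to 16.8 CPM in labelled libraries, 0 counts in the negative extraction, 3.76 CPM in total 4SU RNA and 2.96 CPM in total unlabelled RNA.

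miR-150-5p, the lymphocyte member, was low in all 3 experiments. The labelled libraries had 2.18, 3.17 and 5.26 CPM as lowest, median and highest in experiment 1, 1.27, 3.45 and 5.37 CPM in experiment 2 and 2.82, 4.41 and 6.18 CPM in experiment 3, from 2 to 32 counts each. The 3 ranges overlapped. Total 4SU RNA had 2.65 CPM (12 counts, 1.37 to 4.63) and total unlabelled RNA 3.43 CPM (22 counts, 2.15 to 5.19), a ratio of 0.773 (0.349 to 1.63). The negative extraction had 0 of 283922 counts, for which the 95% counting interval reaches 13.0 CPM. All 21 labelled libraries were above that 0, as were those of 25.4% of tested miRNAs. Since every labelled value is below the upper limit, a difference from the negative extraction was not detectable at this depth. At the labelled median, 0.98 counts would have fallen in the negative extraction.

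For miR-150-5p the slope was 0.05 log2 per hour (SE 0.030, adjusted p = 0.384 in edgeR), or 0.04 with the block (adjusted p = 0.309). The 0 h levels were 4.14, 2.98 and 2.82 CPM in experiments 1, 2 and 3, against 3.66, 4.41 and 3.16 CPM at 12 h. Of other white-cell miRNAs, miR-223-3p, typical of myeloid cells, had 0 to 0.344 CPM in labelled libraries and 0 counts in all 3 controls. miR-142a-3p, found throughout the blood lineage, had 1 count over all labelled libraries. The opposite arm, miR-142a-5p, had 0 to 0.344 CPM in labelled libraries and 0 counts in the negative extraction. It had 1.99 CPM in total 4SU RNA (9 counts) and 0.936 CPM in total unlabelled RNA (6 counts). miR-155-5p, induced in activated immune cells and also known from other dividing cells, was the exception, with 391 to 806 CPM in labelled libraries, 208 CPM in the negative extraction, 238 CPM in total 4SU RNA and 297 CPM in total unlabelled RNA.

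miR-206-3p, the muscle member, was low and varied with the experiment. Its lowest, median and highest labelled levels were 7.31, 11.7 and 17.1 CPM in experiment 1, 1.14, 3.64 and 6.90 CPM in experiment 2 and 8.31, 9.45 and 21.7 CPM in experiment 3. Experiment 2 lay below both other experiments throughout, from 2 to 13 counts per library, while experiments 1 and 3 overlapped. The negative extraction had 3.52 CPM on 1 count (0.089 to 19.6). Total 4SU RNA had 8.62 CPM (39 counts, 6.13 to 11.8), and total unlabelled RNA had 2.03 CPM (13 counts, 1.08 to 3.47).

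Total 4SU RNA thus held 4.25 times the miR-206-3p share of total unlabelled RNA (2.22 to 8.68), rank 11 of 507, where 14.2% were called higher. miR-205-5p and miR-203-3p lay at the other end of the same comparison. With 1 count behind the negative extraction, 1 labelled library had a ratio to it with an interval above 1, and no interval lay below 1. Of the labelled libraries 12 were above both total RNA libraries and 2 below both. The canonical share was 73.6% over all labelled libraries (70.5 to 76.4), 89.7% in total 4SU RNA (76.4 to 95.9) and 69.2% in total unlabelled RNA (42.4 to 87.3). Additions without a template at the 3′ end were 15.2% over all labelled libraries (12.9 to 17.7), against 0 of 39 counts in total 4SU RNA and 0 of 13 in total unlabelled RNA.

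Over the chase miR-206-3p was lower at 12 h than at 0 h in each experiment. At 0 h the levels were 17.1, 3.64 and 21.7 CPM in experiments 1, 2 and 3, and at 12 h they were 7.31, 1.77 and 8.68 CPM. The ratios of 12 h to 0 h were 0.428 (0.265 to 0.665), 0.484 (0.052 to 2.22) and 0.401 (0.240 to 0.641). The slope was -0.06 log2 per hour (SE 0.040, adjusted p = 0.368 in edgeR) without the block and -0.07 with it (SE 0.0226, adjusted p = 0.0222), where 16.7% of all tested miRNAs were called as falling. The call with the block was lost without the 0 h libraries (adjusted p = 0.282), without experiment 1 (0.129) or without experiment 3 (0.140).

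Other muscle miRNAs did not accompany it. miR-1a-3p and miR-133b-3p, heart and skeletal muscle miRNAs, had 0 counts in all labelled libraries and in the negative extraction, and 1 count each in total 4SU RNA. miR-133a-3p had 0 to 1.27 CPM in labelled libraries. The 5 other muscle miRNAs in the table summed to 0 to 1.27 CPM in labelled libraries, 0 in the negative extraction, 2.21 CPM in total 4SU RNA and 1.72 CPM in total unlabelled RNA.

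Taken by median labelled level, the order was miR-205-5p (563 CPM), miR-486a-5p (502), miR-206-3p (8.93), miR-150-5p (3.45) and miR-203-3p (2.38). Levels of different miRNAs also carry the cloning preference of the library kit. miR-205-5p was above miR-486a-5p in 12 of 21 labelled libraries, all 7 of experiment 1, 5 of experiment 2 and 0 of experiment 3, so these neighbours had no fixed order. miR-486a-5p was above miR-206-3p in all 21. miR-206-3p was above miR-150-5p in 18, and miR-150-5p above miR-203-3p in 13.

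Of the 5 miRNAs 4 differed between experiments in edgeR with time points as a factor, where 69.1% of all tested miRNAs did. Adjusted p was 1.77e-11 for miR-205-5p, 0.000218 for miR-203-3p, 1.26e-11 for miR-486a-5p and 1.74e-05 for miR-206-3p, and 0.439 for miR-150-5p. A share near the background says nothing particular about these miRNAs, but the experiment that stood apart was not the same for each. For miR-205-5p it was experiment 3, at -1.47 log2 from experiment 1 (SE 0.089, adjusted p = 8.55e-14) and -1.15 from experiment 2 (SE 0.111, adjusted p = 8.20e-07), while experiment 2 minus experiment 1 was -0.25 (adjusted p = 0.0571). For miR-486a-5p it was experiment 1, with 1.55 log2 for experiment 2 minus experiment 1 (SE 0.124) and 0.01 for experiment 3 minus experiment 2 (adjusted p = 0.916). For miR-203-3p it was experiment 2, at 1.90 log2 above experiment 1 (SE 0.456, adjusted p = 0.00100), with experiment 3 minus experiment 2 at -1.21 (adjusted p = 0.0123). For miR-206-3p it was again experiment 2, at -1.65 log2 from experiment 1 (SE 0.317, adjusted p = 8.93e-05), with experiment 3 minus experiment 1 at -0.03 (adjusted p = 0.892). Many miRNAs were called between pairs: 207 of 449 for experiments 3 and 1, 169 of 411 for 3 and 2, and 231 of 427 for 2 and 1. The labelled libraries of an experiment are steps of 1 chase and not replicates of that experiment. SE and p here reflect the spread between those steps and compare these 3 experiments only.

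**Figure D4:**
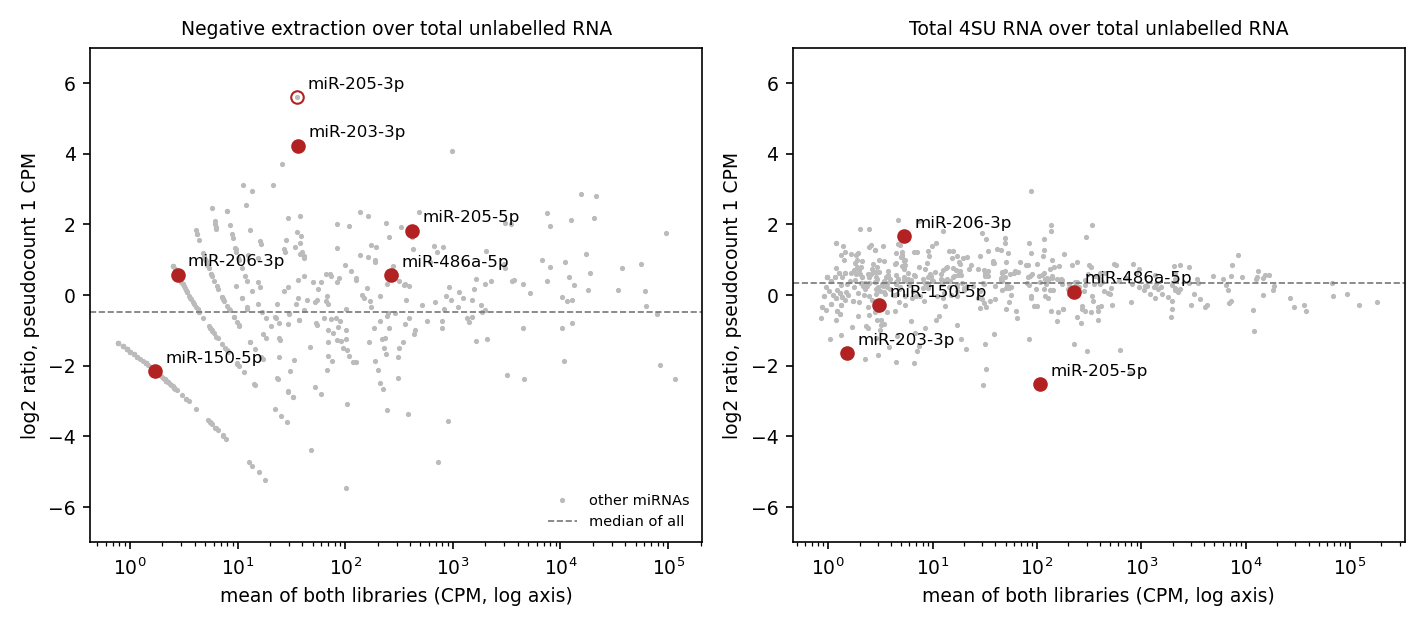
Log2 ratio with a pseudocount of 1 CPM against the mean level of both libraries in CPM on a log axis, for every miRNA with at least 10 counts over the pair (grey), with the 5 miRNAs (red) and miR-205-3p (open circle) named and the median of all dashed. In negative extraction over total unlabelled RNA, miR-205-3p (5.61) and miR-203-3p (4.23) are the top points and miR-205-5p is at 1.83, while in total 4SU over total unlabelled RNA miR-205-5p is at -2.52 and miR-206-3p at 1.67.

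For the slope over the chase, 0 of the 5 passed in edgeR without the block, where 12.3% of all tested miRNAs did. With the block 2 of the 5 fell, on a background of 31.9% called in either direction and 16.7% called as falling. Without the block, an unadjusted p under 0.05 was reached by 0 of the 5, and DESeq2 and limma-voom each called 0. Both were lower at 12 h than at 0 h in all 3 experiments. Leaving out any single library left the count without the block at 0.

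The miRNAs most like each member over the 21 labelled libraries, by Pearson's r of log2 CPM with a pseudocount of 1, are a description of libraries that share their experiment and depth. For miR-205-5p they were miR-298-5p (0.86), miR-224-5p (0.83) and miR-30d-5p (0.83), which kept 0.75, 0.51 and 0.77 with experiment means removed. Those of miR-203-3p were miR-222-3p (0.86), miR-3057-5p (0.84) and miR-877-5p (0.81), which kept 0.65, 0.64 and 0.54. After miR-486b-3p, miR-486a-5p was most like miR-181a-5p (0.92) and miR-6539 (0.87), which kept 0.76 and 0.42 with experiment means removed. For miR-206-3p they were miR-152-3p, miR-669o-5p and miR-669c-5p, each at 0.90, which kept 0.66, 0.64 and 0.76 with experiment means removed. miR-150-5p reached 0.60 with miR-98-3p, and its few counts limit any likeness. Between the 2 epithelial members, miR-205-5p and miR-203-3p, r was 0.05, and 0.24 with experiment means removed. The few counts of miR-203-3p limit that value too. The r between miR-205-5p and miR-486a-5p was -0.63, and -0.01 with experiment means removed. Between miR-205-5p and miR-206-3p it was 0.02, and 0.73 with experiment means removed.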

How the data were processed

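Small RNA was sequenced from 24 libraries of 3T9 cells. The deposited table gives whole-number read counts per isoform class and mature miRNA. The submitters' processing notes name CASAVA 1.8.0. Not given in the sources used here are the aligner, the annotation and how reads with several matches were counted. Of 7129 entries 1 duplicate was removed, and subtotals that repeat other classes (equal in 25728 of 25728 cells) were counted once. Counts were summed per mature name and groups taken from the sample labels. The members and marker lists were chosen with earlier results of these data known.

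The slope and the difference between experiments were fitted to the 414 miRNAs that passed filterByExpr (time points as groups) with edgeR 4.0.16 (R 4.3.3): TMM scaling, quasi-likelihood F test, Benjamini-Hochberg adjustment, threshold 0.05. The fit was checked on simulated counts. DESeq2 1.42.0, limma-voom 3.58.1, other scalings, filters, isoform classes and left-out libraries were alternatives. Replicates are experiments that the series design calls independent. Their numbers pair the libraries: deviations from time-point means correlated at 0.328 to 0.793 in all 63 pairs within an experiment (median 0.614) and at -0.698 to 0.240 in 126 pairs across experiments (median -0.383), so a second fit had the experiment as a block.

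Controls have 1 library each and were compared by CPM ratios with 95% conditional binomial intervals, and called at 2-fold or more with an interval clear of 1. Wilson intervals were used for shares, and those of pooled labelled libraries leave out the spread between libraries and experiments. Reads carry no molecular identifiers, so intervals and floors cover counting error only. Named besides the members were the opposite arms, names from the same hairpin, the 3 miRNAs with the highest r to each member, and markers of the lists. The treatment text of the labels is the same for all samples, so controls were told apart by title. Sequences are RefSeq's for GRCm38.p6.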

Additional observations from a re-analysis of the deposited data

Results flagged for a closer look

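Within each experiment, the highest or lowest of the 7 labelled libraries was compared with its nearest neighbour for the members and their better covered opposite arms. Of 24 such groups 4 had a library whose gap exceeded the 95% critical value of Dixon's test, where chance gives about 1 in 20 for libraries that are alike. The 7 libraries are steps of a chase at unequal depth, so that rate need not hold here. miR-205-3p was at 21.6 CPM at 0 h of experiment 1, against 5.49 CPM for the nearest library of that experiment. miR-206-3p was at 21.7 CPM at 0 h of experiment 3, against 11.9 CPM for the nearest. miR-486a-5p was at 262 CPM at 12 h of experiment 1, against 217 CPM, a gap just past the critical value. miR-486a-3p was at 16.8 CPM at 8 h of experiment 2 (39 counts), against 9.56 CPM.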

How the results depend on the processing

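No result changed direction while called. The number of miRNAs with a called slope, 51, was 132 with the replicate block, 20, 79 and 15 without experiment 1, 2 or 3, 14 without the 0 h libraries and 21 without the 12 h libraries. With the block and settings chosen after seeing the data it was 147 (total-count scaling), 92 (without 0 h) and 84, 148 and 83 (without experiment 1, 2 or 3). Of the 5 miRNAs described, 0 were called without the block, 2 with it, 2 with total-count scaling added, 1 without 0 h, and 1, 3 and 1 without experiment 1, 2 or 3. Leaving out single libraries gave 29 to 54 called slopes, with 29 without the 0 h library of experiment 1 and 33 without that of experiment 3, and 0 of the 5. Of the calls 21 were up and 30 down, against 10 and 47 with total counts and 39 and 24 with upper-quartile scaling. With the block, miR-205-5p kept an adjusted p of 3.86e-06 to 0.0309 in edgeR over the 5 added settings. The log2 ratio of negative extraction to total unlabelled RNA of miR-205-5p, 1.83 with a pseudocount of 1 CPM, was 2.89 with the canonical class, 2.38 with templated classes, 1.54 with TMM and 1.32 without the 10 most abundant miRNAs; labelled libraries above the negative extraction then numbered 2 and 3 with those classes, against 8. Differences between experiments were called for 286 miRNAs, for 272 to 299 without single libraries and for 169 without experiment 1; of the 5, 4 were called, and 2 without experiment 2. The causes were not tested. Thinned libraries left miR-150-5p and miR-203-3p untested. The depth of the negative extraction limits the scarce members.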

Other observations

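Other miRNAs known from single tissues were also present. Of the liver list, miR-192-5p had 229 to 475 CPM in labelled libraries, 296 CPM in the negative extraction, 1086 CPM in total 4SU RNA and 592 CPM in total unlabelled RNA, while miR-122-5p, the main hepatocyte miRNA, had at most 2.04 CPM in any labelled library and 0 counts in the negative extraction. Of the neural list, miR-128-3p had 234 to 511 CPM in labelled libraries, 239.5 CPM in the negative extraction, 335 CPM in total 4SU RNA and 339 CPM in total unlabelled RNA. miR-9-5p, from neural progenitors, had 0.883 to 8.54 CPM in labelled libraries and 14.1 CPM in the negative extraction. The embryonic stem cell names in the table summed to at most 0.692 CPM in labelled libraries.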
